A study of Mus musculus with 10 samples.

Results

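The 8 genes described here carry renal dopamine and serotonin metabolism, from synthesis (Tph1, Ddc) through uptake (Slc6a4) and reception (Drd1) to breakdown (Maoa, Maob, Aldh2) and N-methylation (Inmt). They were picked as a named list, with earlier results of these data known, from 27876 genes in the authors' deposited table, where they are represented by 34 of 85107 transcripts. Each gene was read from its transcript with the highest mean level, and all its other transcripts were kept for comparison. RNA was sequenced from whole kidneys of wild-type mice taken on day 14, of which 5 had received vehicle and 5 had drunk water with quinolinic acid at 0.5 g/L, so that every library shares tissue, genotype, day and batch label. Strain, sex, age and the induction of any kidney injury are not given in the labels. Quinolinic acid is a product of the kynurenine route of tryptophan breakdown, while serotonin and tryptamine come from other uses of tryptophan.

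Proximal tubule cells make dopamine from filtered L-DOPA without the neuronal enzyme tyrosine hydroxylase, because they take L-DOPA up through amino acid transporters and decarboxylate it with aromatic L-amino acid decarboxylase, the product of Ddc. The same enzyme turns 5-hydroxytryptophan into serotonin and tryptophan into tryptamine. Dopamine leaving the cell acts on D1-like receptors, which lower sodium reabsorption, in part through the sodium-hydrogen exchanger. Monoamine oxidases A and B on the outer mitochondrial membrane turn the amines into aldehydes, and mitochondrial aldehyde dehydrogenase turns these into acids.

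The authors' deposited table gives, for each transcript, a log2 fold change between the groups, a log2 CPM, a likelihood ratio and p-values. CPM stands for read counts scaled to a common library total, and the log2 CPM was read as the log2 of its mean over the libraries. Values per library were not used here, the depth is unknown, and neither the spread between mice nor the order of single mice can be given. Errors below are approximate 95% intervals computed from the fold change and its likelihood ratio. Because the file leaves the numerator of the fold change unnamed, signs are as deposited and a positive sign cannot be read as more or less RNA after quinolinic acid. Transcripts of a gene share reads, so their values are not independent. The lowest mean in the table is 0.0201 CPM, and values near it stand for almost no reads.

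Mean levels spanned more than 4 orders of magnitude among the 8 genes when set per kb of transcript. Inmt, whose enzyme indolethylamine N-methyltransferase methylates tryptamine and other amines, stood highest at 424 CPM per kb. Aldh2, the mitochondrial aldehyde dehydrogenase, followed at 67.0 CPM per kb. Ddc came next at 11.2 CPM per kb. Both Inmt (456 CPM before division by length) and Aldh2 (259 CPM) ranked above 99% of all genes, at the 99.7th and 99.4th percentile of mean CPM.

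Below these came Maoa at 1.26, Maob at 1.00 and Slc6a4, the plasma membrane serotonin transporter, at 0.891 CPM per kb. Without a spread over mice the order of these 3 neighbours cannot be settled. Tph1, the tryptophan hydroxylase that commits tryptophan to serotonin outside the brain, stood at 0.0948 CPM per kb, and Drd1, the D1 dopamine receptor, at 0.0244. The longer Tph1 transcript had the same mean of 0.167 CPM over 4562 instead of 1762 bases, which would place Tph1 at 0.0366 CPM per kb and leave the order as it is. Tyrosine hydroxylase (Th), singled out after its value was seen, had 0.0113 CPM per kb, and its 0.0206 CPM before division by length is close to the lowest value in the table. On this scale RNA of the decarboxylase lay far above that of the hydroxylases which make its substrates. In whole tissue, fewer cells of a type and less RNA per cell cannot be told apart.

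**Figure D1:**
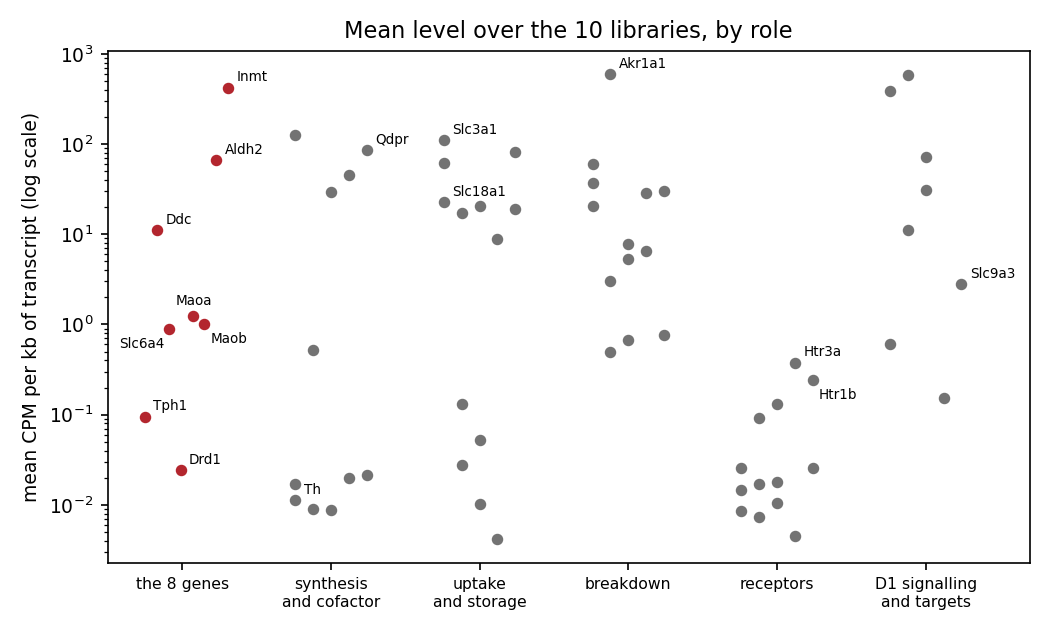
Mean CPM per kb of transcript over the 10 libraries (log axis) for the 8 genes (red) and 58 other genes of monoamine handling (grey), each point 1 gene, with some genes named. Inmt, at 424, and Aldh2, at 67.0, stand highest in red, and all measured receptor genes lie under 1 CPM per kb.

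None of the 8 genes passed the authors' likelihood-ratio test at an adjusted p under 0.05, and none had an unadjusted p under 0.05. Passing was rare throughout the authors' deposited table, where 0.0141% of transcripts did so, 12 in number and from 6 genes. By 1 transcript per gene, 0.0215% of genes passed and 5.12% had an unadjusted p under 0.05. Positive and negative signs were equally common, at 4 genes each, against 57.9% positive among all genes. Of the 6 genes of at least 1 CPM, 4 were positive and 2 negative, against 71.8% positive among all genes at that level. The log2 fold changes of the 8 genes ran from -0.37 for Drd1 to 0.21 for Inmt in the authors' deposited table.

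Ddc (chromosome 11, 11814101 to 11898144, minus strand, GRCm38, the assembly of mm10) was measured at 22.6 CPM. The authors' deposited table gives a log2 fold change of -0.15 (approximate 95% interval -0.47 to 0.18), with an adjusted p of 0.851 in edgeR's likelihood-ratio test. That interval spans fold differences from 0.723 to 1.13, so a doubling or halving lies outside it. With the trend of fold changes along transcript length and mean level taken out by a smooth fit over genes of at least 1 CPM, the value for Ddc was -0.27. With this error, a log2 fold change of about 0.76 would have been needed to pass. Ddc has a pair of start sites in RefSeq, with Ddc-210 beginning at the upstream one and Ddc-202 at the downstream one. Both full-length transcripts share a rounded value of -0.145 in the authors' deposited table, and as they have most of their reads in common the table does not separate the 2 starts.

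The bases before each Ddc start are shown because the 2 starts of this gene differ in sequence while their transcripts carry nearly the same values. They are the last 100 bases before each start in RefSeq (GRCm38.p6, minus strand), and capitals mark a match, with at most 2 mismatches, to the HNF1 motif, which is GTTAAT and ATTAAC with 1 base (N) between them, read on both strands. HNF1 factors are transcription factors of kidney tubule epithelium.
Ddc upstream start, chr11:11898145-11898244: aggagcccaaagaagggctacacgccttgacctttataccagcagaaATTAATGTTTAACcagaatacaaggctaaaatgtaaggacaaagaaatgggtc
Ddc downstream start, chr11:11890409-11890508: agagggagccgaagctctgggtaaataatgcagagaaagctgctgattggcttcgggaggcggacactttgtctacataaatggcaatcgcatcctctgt
The match lies 53 to 41 bases before the upstream start, and the window of the downstream start had no stretch closer than 4 mismatches. Windows of 300 bases were found in RefSeq for 6 of the 8 genes, 9 windows in all, and the upstream Ddc window was the only one with such a match. Among all 32851 promoter windows of that length 1.36% held one. A match in letters is a description and shows no binding.

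Tph1 (chromosome 7, 46644641 to 46672537, minus strand) lay at 0.167 CPM. The authors' deposited table puts its log2 fold change at -0.15, and the approximate interval from -1.52 to 1.22 leaves fold differences from 0.349 to 2.33 undecided. For Slc6a4 (chromosome 11, 76998603 to 77032340, plus strand), measured at 2.43 CPM, the authors' deposited table lists a log2 fold change of -0.08 (-0.50 to 0.33) and an adjusted p of 0.972 from edgeR's likelihood-ratio test. With length and level allowed for, Slc6a4 stood at -0.17. Serotonin synthesis and reuptake thus differed in how closely they were measured, with a fold interval of 0.707 to 1.26 for the transporter and one several times wider for the hydroxylase.

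Drd1 (chromosome 13, 54051183 to 54055705, minus strand), the Gs-coupled receptor through which dopamine lowers sodium reabsorption, was scarce at 0.0862 CPM. The authors' deposited table gave it a log2 fold change of -0.37 (-1.55 to 0.82) and an adjusted p of 0.930 by edgeR's likelihood-ratio test. Its value was the farthest from 0 among the 8 genes, and its interval was among the 2 widest, so that only a log2 fold change of about 2.80 or more could have passed.

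The genes of oxidative breakdown, read from their main transcripts, had a positive sign, as did 71.8% of all genes of at least 1 CPM. Maoa, which prefers serotonin and noradrenaline, was measured at 5.23 CPM, and the authors' deposited table puts its log2 fold change at 0.19 (-0.05 to 0.43). Its p of 0.119 was the smallest among the 34 transcripts, and the adjusted p in edgeR's likelihood-ratio test was 0.794. For Maob, which prefers phenylethylamine and was measured at 2.41 CPM, the authors' deposited table lists 0.12 (-0.21 to 0.45) and an adjusted p of 0.903 from edgeR's likelihood-ratio test. Aldh2 (chromosome 5, 121566027 to 121593824, minus strand) stood at 0.05 (-0.35 to 0.45) in the authors' deposited table. With length and level allowed for, Maoa stood at 0.15, Maob at 0.02 and Aldh2 at 0.01. The median over its 4 transcripts put Maob at 0.00, and Aldh2 turned to -0.09 when read from the transcript that ends farthest from the 3' end. The fold interval for Maoa, 0.967 to 1.34, was the narrowest of the 8, although Aldh2 and Inmt had far higher levels.

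Maoa (chromosome X, 16619698 to 16687818, plus strand) and Maob (chromosome X, 16709282 to 16817366, minus strand) lie tail to tail with 21463 bases between them and share no exonic bases. As the products of a gene duplication they resemble each other, so the longest stretch that their transcripts share without a mismatch is shown to tell how far reads could be mixed up. It is 35 bases long, in coding exon 12 of both genes (chrX:16682201-16682235 in Maoa, plus strand, and chrX:16716449-16716483 in Maob, minus strand, GRCm38).
Maoa and Maob shared run: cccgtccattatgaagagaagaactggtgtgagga
A read longer than this run differs between them by at least 1 base, and the read length is not stated in the labels.

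Inmt (chromosome 6, 55170626 to 55175043, minus strand) had the highest level and, among the 6 genes of at least 1 CPM, the widest interval. Its log2 fold change was 0.21 (-0.53 to 0.95) in the authors' deposited table, with an adjusted p of 0.938 in edgeR's likelihood-ratio test. Fold differences from 0.693 to 1.93 lie inside the interval, and with this error about 1.75 on the log2 scale would have been needed to pass. With length and level allowed for, the value for Inmt was 0.04. How single mice differed in Inmt was not analysed here.

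**Figure D2:**
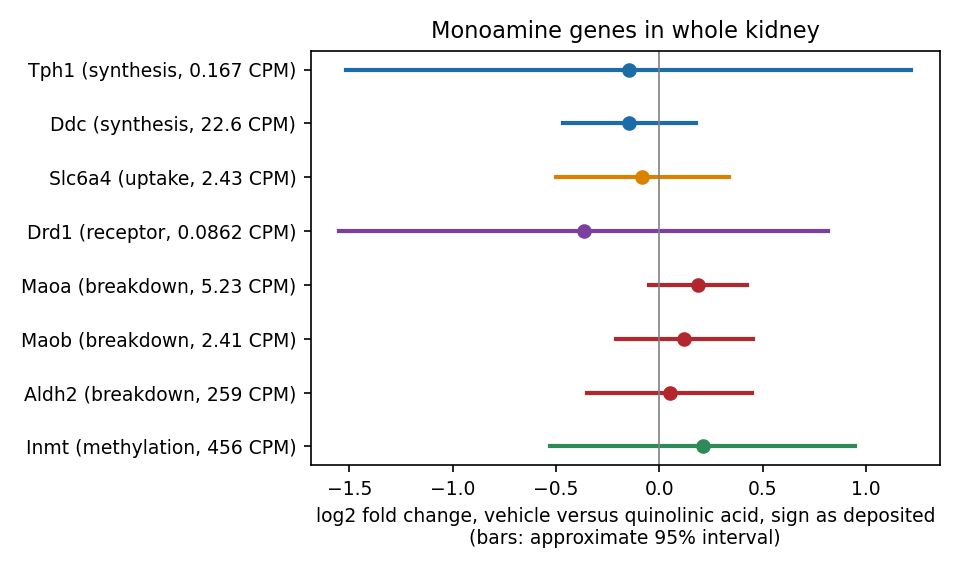
Log2 fold change of the 8 genes with approximate 95% intervals (bars), sign as deposited, coloured by role, with the mean CPM beside each name. Every interval includes 0, from the narrow one of Maoa (-0.05 to 0.43) to the wide ones of Tph1 and Drd1.

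Within Ddc, the listed log2 fold change was most negative in the transcripts ending farthest from the gene's 3' end, but did not follow the end throughout. In the authors' deposited table the Ddc transcripts that stop at least 30876 bases short of the gene's 3' end ranged from -0.30 to -0.32 in log2 fold change, with means of 2.49 to 6.53 CPM. The short Ddc-206, which reaches the 3' end, stood at -0.03 and Ddc-205, which ends 5250 bases from it, at -0.04 in the authors' deposited table. Ddc-201, Ddc-210 and Ddc-202 are longer, have a higher mean CPM before division by length and also reach the 3' end. Yet these were more negative than Ddc-206 and Ddc-205, at -0.146, -0.145 and -0.145. Per kb, Ddc-206 had 14.8 CPM and the 5 transcripts that stop at least 30876 bases short of the 3' end 3.57 to 8.17. None of the 10 Ddc transcripts had an unadjusted p under 0.05 in edgeR's likelihood-ratio test, and their intervals overlap widely.

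The other genes had more negative values farther from the 3' end only in part. Aldh2-204, which ends 10430 bases from the 3' end, had a log2 fold change of -0.09 against 0.05 for the full transcript in the authors' deposited table. Between these, Aldh2-203 had the more positive value of its pair in the authors' deposited table (0.04, ending 5445 bases away, against 0.02 for Aldh2-202, ending 4289 bases away). The retained-intron transcript Inmt-202, 2137 bases from the 3' end, had 0.14 against 0.21 for Inmt-201 in the authors' deposited table. In Slc6a4 the transcripts away from the 3' end had -0.38 and -0.21 against -0.08 in the authors' deposited table, both under 1 CPM. Maob went both ways under 1 CPM, at -0.13 for Maob-202 and 0.13 for Maob-204 in the authors' deposited table. Tph1, with every transcript under 0.2 CPM, had no such order in the authors' deposited table: Tph1-203 (0.67) and Tph1-206 (0.28) lay above the main transcript (-0.15), while Tph1-204 (-0.46) and the farthest, Tph1-205 (-1.15), lay below it.

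A more negative value farther from the 3' end was also common across the whole table. Over all genes with a main transcript of at least 1 CPM within 50 bases of the 3' end and another at that level ending more than 1000 bases from it, 4919 in number, the far transcript had the more negative log2 fold change in 4303 (87.5%), with a median difference of -0.14. The differences of Ddc (-0.17), Aldh2 (-0.13) and Inmt (-0.06) lie inside the middle 50% of these genes, which ran from -0.25 to -0.05. The comparison was chosen after the values of Ddc were seen and carries no test. RNA quality and coverage along transcripts in single libraries were not analysed here, and their part in these values was not tested.

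**Figure D3:**
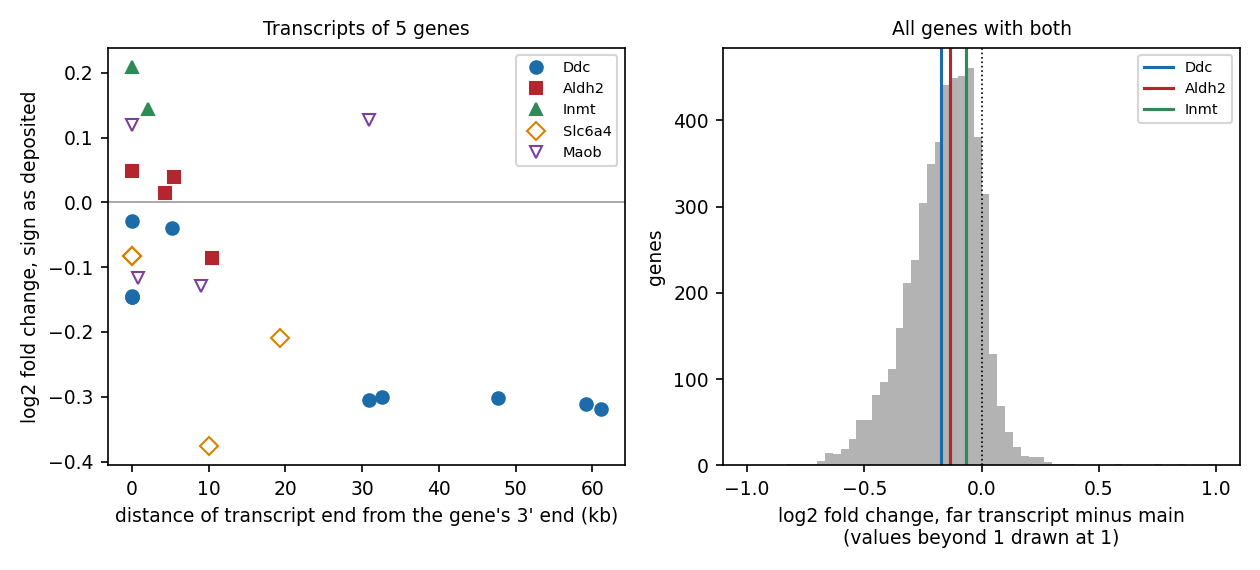
Left, log2 fold change (sign as deposited) of the transcripts of 5 genes against the distance in kb of the transcript's end from the gene's 3' end, each point 1 transcript, open symbols for genes under 3 CPM. Right, number of genes by the difference in log2 fold change between the farthest transcript and the main one for 4919 genes, with Ddc (-0.17), Aldh2 (-0.13) and Inmt (-0.06) as lines inside the main bulk.

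The other genes of monoamine handling were read from 5 lists with 61 genes, of which 58 were measured and 34 reached 1 CPM. None passed edgeR's likelihood-ratio test over all transcripts in either direction, against 0.0215% of all genes. At an unadjusted p under 0.05 there were 4 positive and 2 negative genes, against 3.58% and 1.54% of all genes. Of the 34 genes of at least 1 CPM 28 (82.4%) were positive and the median log2 fold change was 0.16, against 71.8% and 0.08 for all 13115 genes at that level. Once the dependence of fold change on length and level of the transcript was taken out, the median was 0.05, against 0.00 for all genes. Of the 34 genes 21 were then positive, against 6544 of all 13115. The trend was fitted on these same 13115 genes, so their median near 0 and even split follow from the fit.

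Synthesis beyond the 2 enzymes above means tyrosine hydroxylase, brain tryptophan hydroxylase and the enzymes that make or recycle tetrahydrobiopterin, the cofactor of both hydroxylases. The 5 cofactor genes (Gch1, Pts, Spr, Qdpr and Pcbd1) were measured from 1.45 to 118 CPM, while the 6 amine-specific genes (Th, Tph2, Dbh, Pnmt, Aanat and Asmt) were all under 0.03 CPM. All 5 cofactor genes had a positive sign in the authors' deposited table, with a median of 0.24, or 0.05 once length and level were allowed for. Qdpr, the dihydropteridine reductase, had a log2 fold change of 0.25 (-0.10 to 0.59) and Pts, the pyruvoyl-tetrahydropterin synthase, 0.16 (-0.07 to 0.39) in the authors' deposited table.

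Of 13 uptake and storage genes 10 had a positive sign and 8 reached 1 CPM. Slc3a2, the heavy chain of amino acid exchangers that can carry L-DOPA, had a log2 fold change of 0.28 (0.03 to 0.53) in the authors' deposited table, with p = 0.0305 and 0.794 as the adjusted p of edgeR's likelihood-ratio test. Slc7a9, the light chain of the brush border cystine transporter, had 0.31 (-0.03 to 0.65) in the authors' deposited table, read from a transcript annotated as retaining an intron. Its partner Slc3a1 was the most abundant of the list at 250 CPM, with a log2 fold change of 0.06 in the authors' deposited table. The vesicular transporter gene Slc18a1, singled out after its value was seen, stood at 22.8 CPM per kb, above Ddc. Its relative Slc18a2, singled out likewise, had 0.0279 CPM per kb.

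All 13 other breakdown genes reached 1 CPM, and 11 were positive, the median being 0.13. The 2 with the smallest p were Aoc3, a copper amine oxidase of vessels and fat, and Akr1b3, aldose reductase, which can reduce amine-derived aldehydes. Aoc3, at 2.15 CPM, is listed in the authors' deposited table with a log2 fold change of 0.60 (0.19 to 1.01), p = 0.00447 and, from edgeR's likelihood-ratio test, an adjusted p of 0.621. Akr1b3, at 10.7 CPM, is listed there, in the authors' deposited table, with 0.50 (0.13 to 0.87), p = 0.00771 and an adjusted p of 0.685 from edgeR's likelihood-ratio test. The aldehyde reductase gene Akr1a1 was the most abundant at 851 CPM and had a log2 fold change of 0.18 (-0.19 to 0.56) in the authors' deposited table.

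Of 16 further receptor genes 13 were measured, and only Htr1b, a Gi-coupled serotonin receptor, reached 1 CPM. At a mean of 1.15 CPM, its value in the authors' deposited table was -0.42 (-0.99 to 0.16) on the log2 scale. The receptors with an unadjusted p under 0.05 were all below that level and were named after their values were seen. For the ion channel receptor gene Htr3a, at 0.785 CPM, the authors' deposited table lists a log2 fold change of 0.83 (0.30 to 1.37), p = 0.00223 and an adjusted p of 0.533 from edgeR's likelihood-ratio test. The Gs-coupled Htr4, at 0.120 CPM, has the opposite sign in the authors' deposited table, with -1.33 (-2.23 to -0.43), p = 0.00376 and an adjusted p of 0.590 from edgeR's likelihood-ratio test. Htr6 is listed at -2.86 in the authors' deposited table, with a mean of 0.0339 CPM, close to the lowest level of the table.

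Of the 8 genes of D1 signalling and sodium transport 6 were positive, and the median was 0.13. Slc9a3, the sodium-hydrogen exchanger that D1 receptors restrain, was measured at 7.01 CPM and is listed in the authors' deposited table with -0.32 (-0.96 to 0.32). In the authors' deposited table Gnas, the Gs protein, has 0.18 (-0.10 to 0.46) with 278 CPM. Like Drd1, none of these passed the test.

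**Figure D4:**
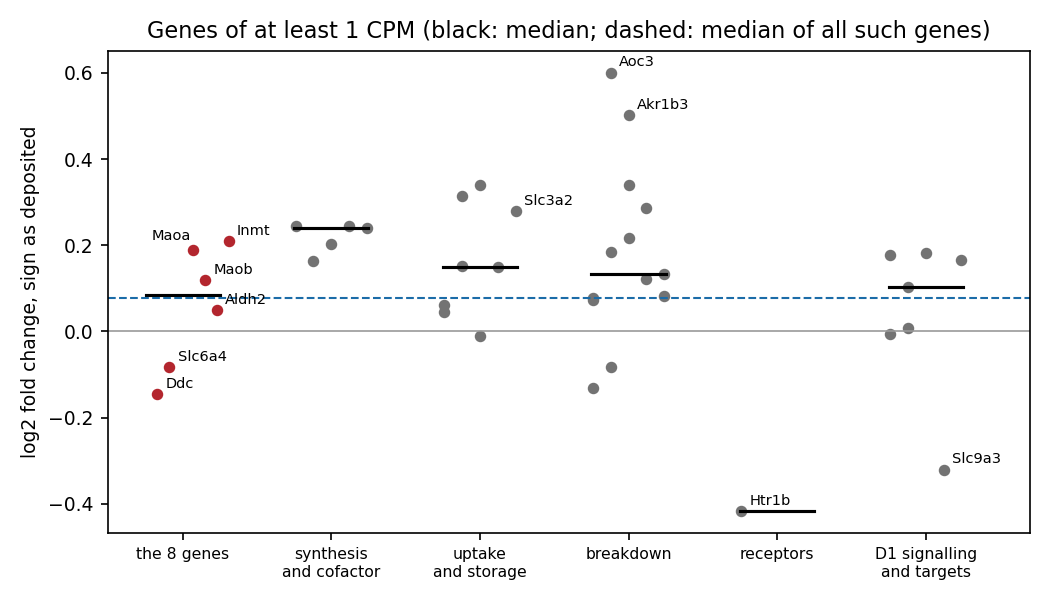
Log2 fold change (sign as deposited) of genes of at least 1 CPM, 6 of the 8 genes (red) and 34 others by role (grey), each point 1 gene, with black lines for the medians and a dashed line for the median of all 13115 such genes (0.08). Most points lie within 0.35 of 0, and Aoc3 (0.60), Akr1b3 (0.50) and Htr1b (-0.42) lie farthest out.

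Markers of the cells that could carry these genes were read beside them. All 8 proximal tubule markers were measured from 30.5 to 1430 CPM, led by the phosphate transporter gene Slc34a1. Their median log2 fold change was 0.06, and Slc5a2 had the smallest p (0.30, p = 0.268) in the authors' deposited table. The 8 nerve markers summed to 3.43 CPM and 7 were positive, the median being 0.67 on the log2 scale. Of these 8, 3 had a positive value with an unadjusted p below 0.05, which holds for 3.58% of all genes. In the authors' deposited table Uchl1, the highest of them, had a log2 fold change of 0.37 and Sox10, at 0.144 CPM, one of 1.17 (p = 0.0127). The other 2 nerve markers with a p below 0.05, named after their values were seen, are listed in the authors' deposited table as Tubb3 (1.68, p = 0.0253, at 0.531 CPM) and Snap25 (2.29, p = 0.0272, at 0.0451 CPM). The 6 measured adrenal markers summed to 2.47 CPM, of which Akr1b7 gave 1.87 CPM. In the authors' deposited table Akr1b7 had a log2 fold change of 0.56 (p = 0.00455 in edgeR's likelihood-ratio test). The adrenal list as a whole had a median of only 0.08, with 4 positive genes, 1 negative gene and 1 listed at 0.

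Mast cells and platelets hold Tph1, Slc6a4 or both in other tissues. The 8 mast cell markers summed to 8.61 CPM, of which Kit, also a gene of other cells, gave 7.59 CPM at a log2 fold change of -0.02 in the authors' deposited table. Cpa3, the mast cell carboxypeptidase, is listed in the authors' deposited table with -3.82 (p = 0.00252) and a mean of 0.0387 CPM. The mast cell list as a whole was split, with 3 positive, 3 negative and 2 genes listed at 0, and a median of 0. The 6 platelet markers summed to 6.11 CPM, with Itga2b at 0.01 and Gp9, at 0.0709 CPM, at -0.56 in the authors' deposited table. Of these 6, 4 were positive and 2 negative, the median log2 fold change being 0.09. No marker of these 5 cell types passed edgeR's likelihood-ratio test. Their levels in each group were not analysed here, and their part in the values of the 8 genes was not tested.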

How the data were processed

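RNA-seq libraries of whole kidney were grouped by their treatment labels. STAR 2.5.3a, featureCounts of Subread 1.4.6, FastQC 0.11.2, edgeR and build mm10 are named in the submitters' processing notes. The deposited comparison is named as one of GENCODE transcripts. Strand setting, filters, depths and the release of that annotation are not given in the sources used here. For each transcript, per the file header, the authors deposited the log2 fold change, a log2 CPM, a likelihood-ratio score and p-values (raw and adjusted). The header does not say how the log2 CPM was averaged, and it was read here as the log2 of the mean CPM. The plan used the authors' test for a finished comparison, and tests on values of each library only had such values been given. Each raw p matched the chi-square tail for its score, and each adjusted p the Benjamini-Hochberg value over all transcripts.

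Transcripts were matched without version to GENCODE vM21 (83446 of 85107, 98.0%), and ties in level took the first in deposited order. The standard error was the size of the log2 fold change over the root of its score. It covers only what the authors' model covers, and cannot be had for the 3641 transcripts listed at a log2 fold change of 0. The trend on log2 length and level was removed with loess (span 0.5, R 4.3.3) over genes of at least 1 CPM. Aldh2 shares 130 exonic bases with a provisional gene model on the other strand, and no other member shares any. The computations were tested on simulated data (Python 3.11.15, numpy 2.4.6, pandas 2.3.3, scipy 1.17.1, matplotlib 3.10.9).

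The members, lists and tests were chosen with earlier results of these data known. The rule named all 8 members. Of each pathway list it named the most abundant gene and, above 1 CPM, the 2 of smallest p, and of each marker list the most abundant gene and the one with the smallest p. Other names are said to be chosen after their values were seen, and a gene that the rule would name is not reported here. A likeness between genes could not be computed from 1 comparison. The alternatives were other adjustments, a filter at 1 CPM, other transcripts and the removal of the trend.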

Additional observations from a re-analysis of the deposited data

How the results depend on the processing

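No paired analysis was possible because the deposited table holds a finished comparison and no values per library, and for the same reason leaving out single replicates was not run. None of the 8 genes and none of the 58 other pathway genes passed with 1 transcript per gene or when read from the coding transcript. The filter at 1 CPM and the removal of the length and level trend could be run only for the 6 genes and 34 pathway genes of at least 1 CPM, none of which passed, and not for Drd1, Tph1 and 24 pathway genes. The 8 genes had 42 alternative values, of which 34 carry an adjusted p, the smallest being 0.794, and the 8 medians over transcripts carry none. Of the 42, 1 changed sign, Aldh2 at -0.0852 when read from the transcript ending farthest from the 3' end, an alternative chosen after seeing the data. Other adjustments, the filter and the coding transcript keep the main log2 fold change of the 8 genes, so no sign could change there. The coding transcript is the main one in all 8 and repeats its result, and Maoa and Drd1 have only 1 transcript each. With the trend removed, Ddc stood at -0.27, Slc6a4 at -0.17, Maoa at 0.15, Inmt at 0.04, Maob at 0.02 and Aldh2 at 0.01. The median over transcripts placed Ddc at -0.22, Slc6a4 at -0.15, Aldh2 at 0.03 and Maob at 0.00, and the farthest transcript placed Ddc at -0.32, Slc6a4 at -0.21 and Tph1 at -1.15. Over all transcripts 12 passed, against 22 at an adjusted p under 0.1, 4 with the filter at 1 CPM and 8 genes with 1 transcript per gene. The depth of the libraries is unknown, and the intervals of Tph1 and Drd1, the 2 genes under 1 CPM, were the widest of the 8.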

Other observations

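Marker lists of other tissues and of further cell types of the kidney gave the following values. All 6 adipocyte markers were positive, the median log2 fold change being 3.63, led in p by the adipokine gene Adipoq (4.55 at 0.216 CPM, adjusted p 0.0748 in edgeR's likelihood-ratio test) in the authors' deposited table, while Fabp4, the most abundant, stood at 0.19. The 6 liver markers were also all positive, with a median of 1.13, led in p by the fibrinogen gene Fgb (1.05), with the transthyretin gene Ttr (0.45) the most abundant, in the authors' deposited table. An unadjusted p under 0.05 was reached by 5 of 6 adipocyte and 4 of 6 liver markers, against 5.12% of all genes. Aoc3, which adipocytes express, had the same sign, and the part of fat in its value was not tested. The 4 collecting duct markers were all positive with a median of 0.22, and Hsd11b2 had the highest level and smallest p (0.29, p = 0.0724) in the authors' deposited table. The 4 fibroblast markers had a median of 0.10, with Col1a1 at -0.06 and Dcn at 0.25 in the authors' deposited table, and the 4 vascular smooth muscle markers one of 0.14, with Tagln at -0.02 and Cnn1 at 0.47 in the authors' deposited table. None of these genes passed the test.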
